A study of Mus musculus with 2 samples.

Results

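The regions described here are clearer binding sites of the corepressor SMRT in mouse liver. They were listed at Zeitgeber time (ZT) 10 and overlapped no peak listed at ZT22. They are 668 of the 21370 peaks listed at ZT10 (3.13%) and 668 of the 8327 scoring 2.0 or more there (8.02%, 95% interval 7.45 to 8.63). The peaks were chosen by 2 measured values: their score in the ZT10 list, which had to be 2.0 or more, and the absence of any ZT22 peak, whatever its score, that shared at least 1 bp with them. Those 2 values are therefore given below as a description only. For brevity the 668 are called ZT10-only peaks, the other 7659 ZT10 peaks with a score of 2.0 or more are called partnered peaks, and the 6105 ZT10 peaks below 2.0 without a ZT22 overlap are called weak ZT10-only peaks.

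SMRT does not bind DNA itself. It is held at DNA by nuclear receptors, among them those for thyroid hormone and retinoic acid, when these carry no activating ligand, and it activates the histone deacetylase HDAC3, which lowers histone acetylation and transcription nearby. In liver the related corepressor NCoR works with HDAC3 and the clock repressor REV-ERB alpha, a nuclear receptor that is abundant in the light phase, so that recruitment of corepressors there is known to follow the day. A SMRT peak marks a place where the antibody recovered more DNA than the surroundings. It names neither the receptor nor the gene under its control.

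Livers came from male C57BL/6 mice aged 12 weeks, untreated and with free access to food, and were taken at 5 pm (ZT10, late in the light phase) or at 5 am (ZT22, late in the dark phase). Chromatin of 4 mice a time was immunoprecipitated animal by animal with an Abcam antibody to SMRT, then combined and sequenced as 1 library. Whole liver was used, so hepatocytes and the other cells of the organ were not separated. The difference between the times and any difference between the 2 pools of animals cannot be told apart, and no value below has a replicate check. Peak names inside the ZT10 list read 5 am and those inside the ZT22 list read 5 pm, against the labels of the samples. Groups follow the sample labels here. If the peak names were right, the 668 peaks would belong to ZT22. The score is the authors' own, with an unstated scale, and read depth is unknown, so a peak missing from a list need not be a site without SMRT.

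Most ZT10-only peaks were modest. Their scores ran from 2.0 to 13.7 with a median of 2.3 and quartiles of 2.1 and 2.7, and 545 of 668 scored below 3. Partnered peaks had a median of 2.8 and quartiles of 2.3 and 3.5. Just below the threshold, 219 of 909 ZT10 peaks at a score of 1.8 (24.1%) and 183 of 865 at 1.9 (21.2%) had no ZT22 overlap. Just above it these were 123 of 809 at 2.0 (15.2%) and 104 of 707 at 2.1 (14.7%). Of the ZT10 peaks scoring 2.0 or more, 17 overlapped their nearest ZT22 peak by only 1 to 20 bp and counted as partnered, while 14 missed it by a gap of 0 to 19 bp and counted as ZT10-only. Over a wider margin, 64 overlapped by 1 to 50 bp and 30 missed by a gap of 0 to 49 bp.

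The share of ZT10 peaks without a ZT22 partner fell with score and was higher again among the strongest. It was 12.7% (414 of 3248; 11.6 to 13.9) at scores from 2.0 to 2.4 and 7.35% (131 of 1783) from 2.5 to 2.9. It was 4.68% (87 of 1859) from 3.0 to 3.9 and 2.51% (19 of 756) from 4.0 to 4.9. From 5.0 to 7.9 only 8 of 592 peaks (1.35%, 0.585 to 2.65) lacked a partner, against 9 of 89 (10.1%, 4.73 to 18.3) at 8.0 or more. The 9 strongest ZT10-only peaks lay close together in part. With peaks whose starts were up to 5 kb apart joined, the 89 peaks formed 85 places, of which 5 held unpartnered peaks alone (5.88%, 1.94 to 13.2). That interval overlaps the 0.585 to 2.65 of the peaks from 5.0 to 7.9, which were counted singly. By place the higher share among the strongest is thus less clear. Lack of overlap also did not always mean distance. Of the 9 peaks, those on chromosomes 12, 9 and 5, described below, had a ZT22 peak at gaps of 65 to 143 bp. The others were 6.05 to 284 kb from one. In the ZT22 list, 8 of its 521 peaks from 5.0 to 7.9 (1.54%) and 1 of 72 at 8.0 or more (1.39%, 0.0352 to 7.50) lacked a ZT10 partner.

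**Figure D1:**
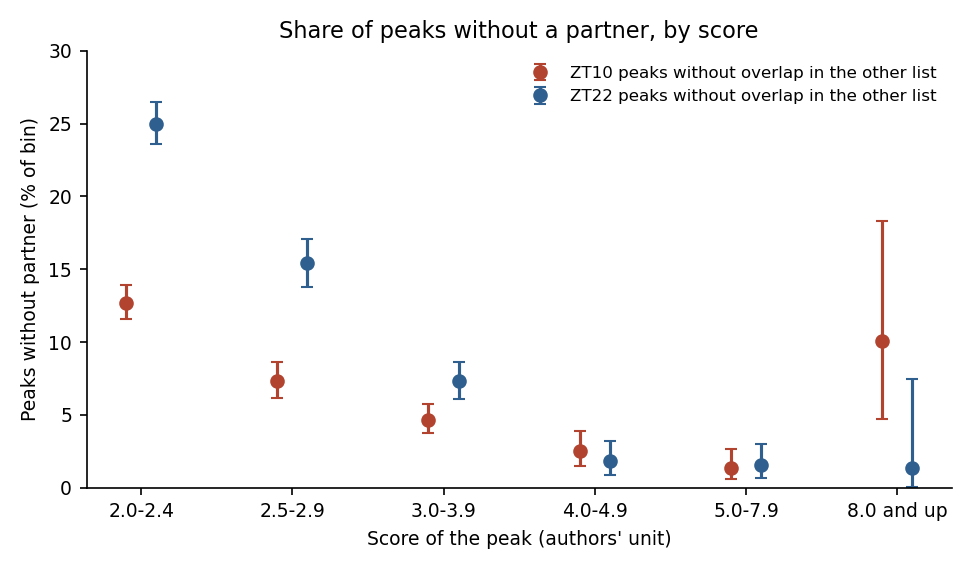
Share of peaks without an overlapping peak in the other list (vertical axis, % of the peaks in a bin) by the authors' score (horizontal axis), for the ZT10 list in red and the ZT22 list in blue. Points are shares and bars are exact 95% intervals for counting error, with each peak counted singly even where peaks lie close together. The red share falls from 12.7% to 1.35% and stands at 10.1% in the highest bin, where the blue share is 1.39%. A peak without overlap may still lie close to a peak of the other list.

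The 17 ZT10-only peaks that scored 5 or more were of 3 kinds by their distance from ZT22 peaks, measured as the gap between the nearest edges. A ZT22 peak lay within 1 kb of 6 of them, between 1 and 10 kb from another 6, and more than 10 kb from the remaining 5. All positions are 1-based in build mm8. Genes at these positions were not analysed here.

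The first kind stood directly beside ZT22 peaks that were strong themselves. On chromosome 12, peaks at 104739569 to 104739768 (score 9.6) and 104740166 to 104740365 (10.7) flanked a ZT22 peak of score 11.8, the fifth strongest of its list, with gaps of 65 and 132 bp. This ZT22 peak overlapped neither of them, so the place entered both lists of single peaks although it scored high in both. The chromosome 9 peak at 45980062 to 45980261 (10.6) had a partnered ZT10 peak of score 10.2 at a gap of 123 bp, and the ZT22 list held only 1 peak there, of score 8.6. The chromosome 11 peak at 58118343 to 58118542 (6.0) lay 88 bp from a partnered ZT10 peak of score 11.6 whose ZT22 counterpart scored 11.7. On chromosome 5 a peak at 125679558 to 125679757 (8.4) was 143 bp from a ZT22 peak of score 5.9 that had no ZT10 partner. A peak on chromosome 6 at 129147346 to 129147545 (5.6) was 628 bp from a shared site scoring 5.8 at ZT10 and 5.5 at ZT22. At these places SMRT peaks were thus listed at both times and differed in position or in number.

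The second kind had its nearest ZT22 peak 2.42 to 9.86 kb away. On chromosome 8, 3 peaks within 806 bp, at 112879547 to 112879746 (10.1), 112879845 to 112880044 (8.1) and 112880153 to 112880352 (8.3), had gaps of 98 and 108 bp between them and no ZT22 peak among them. The nearest ZT22 peak, of score 2.1, was 6.05 kb from the first of the 3 and overlapped another ZT10 peak of score 2.2. Single peaks were found on chromosome 16 at 22807361 to 22807560 (6.8, gap 5.03 kb), chromosome 2 at 32240551 to 32240750 (5.6, gap 9.86 kb) and chromosome 7 at 28087873 to 28088072 (5.1, gap 2.42 kb). Of these 3, the chromosome 2 and chromosome 7 peaks faced strong ZT22 neighbours, of scores 8.3 and 4.9, and the chromosome 16 peak a weak one of 2.2.

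The third kind stood far from ZT22 peaks. The strongest, on chromosome 11 at 108827964 to 108828163, ranked 4 in the ZT10 list with a score of 13.7. Its nearest ZT22 peak was 55.7 kb away and scored 1.4, and the nearest other ZT10 peak, at 55.6 kb, scored 1.2, so this site stood alone within each list. The peak on chromosome 3 at 5843673 to 5843872 (8.6) was likewise alone, with 284 kb to the nearest peak of either list. A second chromosome 11 peak, at 3032106 to 3032305 (6.8), was 255 kb from ZT22 and 134 kb from other ZT10 peaks. On chromosome 9 the peak at 106105587 to 106105786 (7.0) had gaps of 15.8 and 15.9 kb. Only the chromosome 8 peak at 20439081 to 20439280 (6.4, gap 37.3 kb) had company, a weak ZT10-only peak of score 1.4 at 290 bp. The nearest ZT22 peaks of all 5 scored from 1.4 to 2.1.

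**Figure D2:**
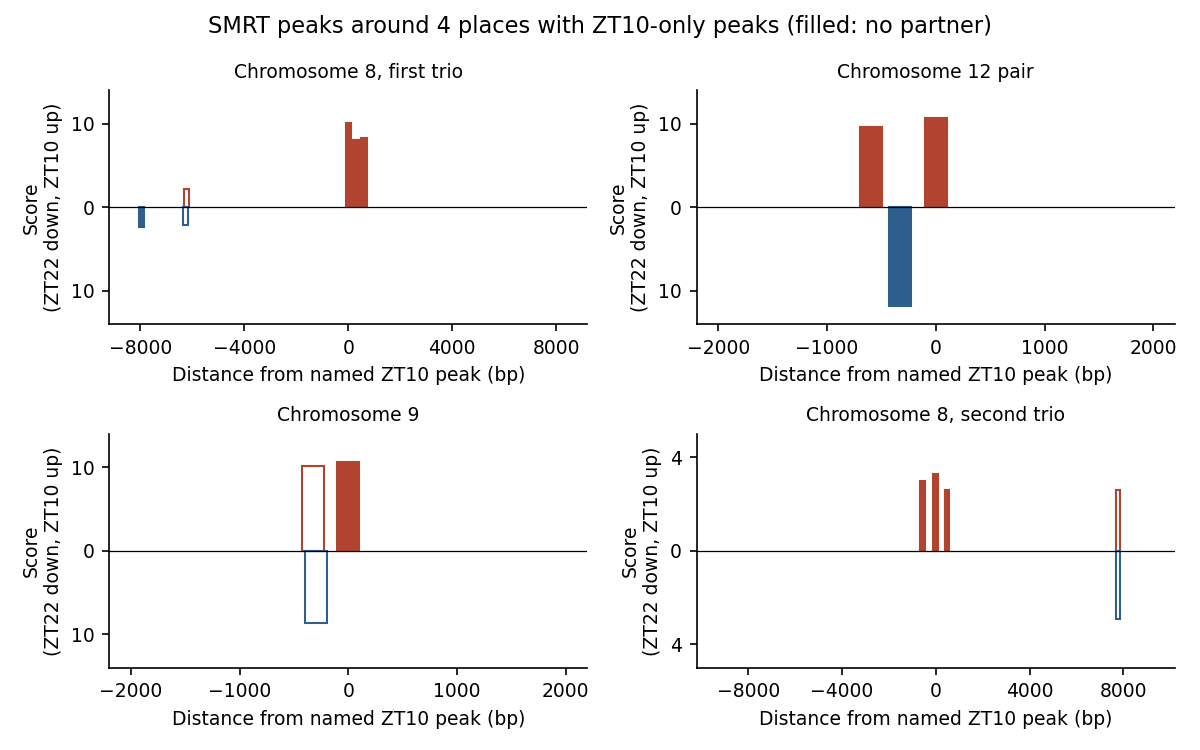
Peaks of both lists around 4 places with ZT10-only peaks, by distance in bp from the centre of a named ZT10-only peak (horizontal axis), with bar width equal to the 200 bp of a peak and bar height equal to the score, ZT10 upward and ZT22 downward. Filled bars have no overlapping peak in the other list and open bars have one; the chromosome 12 pair (9.6 and 10.7) encloses a ZT22 peak of 11.8, whereas both chromosome 8 trios have no ZT22 peak beneath them.

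Across all 668 peaks, a ZT22 peak was often close by. The median gap to the nearest one was 2.30 kb, with quartiles of 0.414 and 11.3 kb and a highest value of 1378 kb on chromosome X. Within 100 bp lay 69 (10.3%), within 1 kb 250 (37.4%, 33.7 to 41.2) and within 10 kb 490 (73.4%, 69.8 to 76.7). Weak ZT10-only peaks were farther away, with a median gap of 7.48 kb and 1314 of 6105 (21.5%, 20.5 to 22.6) within 1 kb. The mirror group, 1315 ZT22 peaks with a score of 2.0 or more and no ZT10 overlap, had a median gap of 5.26 kb, with 308 (23.4%, 21.2 to 25.8) within 1 kb of a ZT10 peak. Near calls were therefore more frequent among the ZT10-only peaks than in either other group. The ZT22 list is longer, with 24078 peaks, which shortens gaps toward it; the part of this in the difference from the mirror group was not tested.

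Within 1 kb the order against the mirror group was the same in each score range. At scores from 2.0 to 2.4, 136 of 414 ZT10-only peaks (32.9%, 28.3 to 37.6) had a ZT22 peak within 1 kb, against 22.7% (20 to 25.7) of the mirror group looking toward ZT10. From 2.5 to 2.9 the shares were 48.1% (39.3 to 57.0) and 21.9% (17.3 to 27.0). At 3.0 or more they were 41.5% (32.7 to 50.7) and 30.8% (23.3 to 39.0), where the intervals overlap. Within 10 kb the shares were 69.6% and 61.6% at scores from 2.0 to 2.4 and 83.2% and 60.6% from 2.5 to 2.9. At 3.0 or more the order within 10 kb was the other way, 75.6% (67 to 82.9) and 78.3% (70.7 to 84.8), with overlapping intervals.

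**Figure D3:**
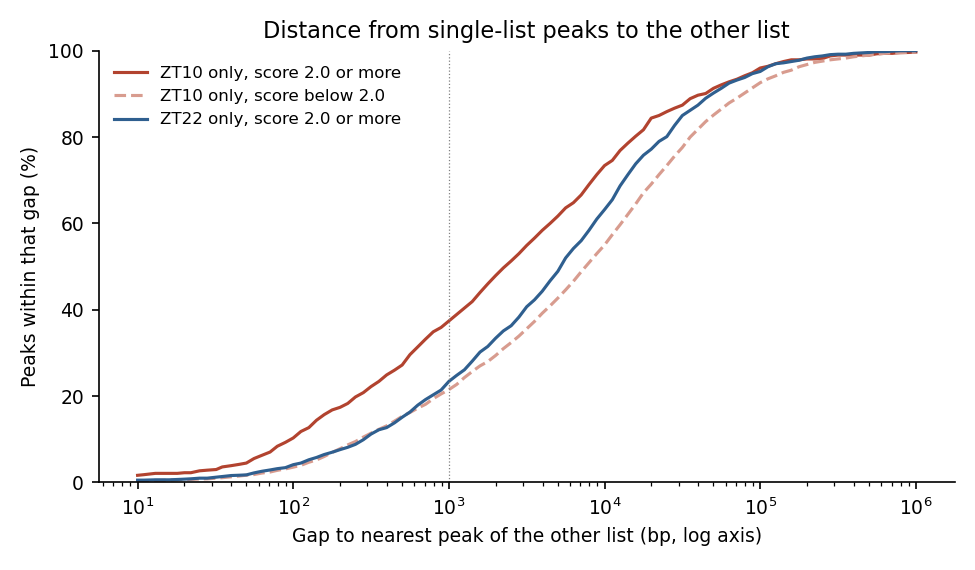
Cumulative share of single-list peaks (vertical axis, %) whose nearest peak of the other list lies within a given gap between edges (horizontal axis, bp, log axis), for ZT10-only peaks with a score of 2.0 or more (solid red), weak ZT10-only peaks (dashed) and the ZT22 mirror group (blue). The dotted line marks 1 kb, where the curves stand at 37.4%, 21.5% and 23.4%.

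The 250 ZT10-only peaks within 1 kb of a ZT22 peak were of unlike kinds. In 154 (61.6%, 55.3 to 67.7) that ZT22 peak overlapped another ZT10 peak, so the ZT10-only peak was an additional call beside a shared site. The median gap was 318 bp. The shared site's ZT10 peak could have any score, whereas the rule held the additional call to 2.0 or more. The shared site's ZT10 peak had a median score of 2.8 against 2.4 for the additional call. It scored higher in 88 of the 154, equal in 7 and lower in the rest. Its ZT22 peak was among the 6019 strongest of the ZT22 list, at a score of 2.2 or more, in 92 cases (59.7%). In the other 96 (38.4%, 32.3 to 44.7) the ZT22 peak had no ZT10 partner either. These stood closer, with a median gap of 86.5 bp, and in 87 of the 96 the ZT10-only peak was in turn the nearest ZT10 peak to that ZT22 peak. Of the 96 ZT22 peaks, 45 scored 2.0 or more. Such pairs were single peaks of both lists at nearly the same place.

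The remaining 418 ZT10-only peaks, 240 with a gap over 1 and up to 10 kb, 151 over 10 and up to 100 kb and 27 beyond 100 kb, had no ZT22 peak within 1 kb. Their median scores were little lower than those of the near peaks. They were 2.3, 2.2 and 2.2 in these 3 ranges, against 2.4 beside shared sites and 2.3 beside single ZT22 peaks. Nearness still differed with score. Among all ZT10-only peaks scoring from 2.0 to below 2.5, 32.9% (28.3 to 37.6) had a ZT22 peak within 1 kb. From 2.5 to below 3.0 the share was 48.1% (39.3 to 57). At 3.0 or more it was 41.5% (32.7 to 50.7), an interval that overlaps both others. A score of 3 or more was reached by 42, 27 and 3 peaks in the 3 far ranges. Beside shared sites 30 of 154 reached it, and beside single ZT22 peaks 21 of 96. The 27 most distant peaks held 2 with a score of 5 or more, those on chromosomes 3 and 11 named above, and 25 others scoring from 2.0 to 3.0.

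ZT10-only peaks were also more crowded within the ZT10 list itself. This property did not enter their choice directly, but the overlap rule builds part of it in. Where a ZT22 peak overlaps only some of several close ZT10 peaks, the others become ZT10-only and already have a close ZT10 neighbour. The values below therefore describe the chosen peaks and are no independent support. Another ZT10 peak lay within 1 kb of 224 of the 668 (33.5%, 30 to 37.3), against 1636 of 7659 partnered peaks (21.4%, 20.4 to 22.3). The difference was 12.2 percentage points (95% Newcombe interval 8.57 to 15.9). It was 8.74 points (4.34 to 13.5) at scores from 2.0 to 2.4, 23.2 (14.7 to 31.9) from 2.5 to 2.9 and 16.5 (8.16 to 25.5) at 3.0 or more, and so was present in each score range. Within 200 bp the shares were 10.8% and 4.37%. Within 5 kb they were 59.0% and 49.5%, 9.45 points apart (5.51 to 13.3), though at scores of 3.0 or more the interval of the difference took in 0 (7.27 points, -1.72 to 15.6). In the ZT22 list no such difference within 1 kb was seen for the mirror group: 302 of 1315 single ZT22 peaks (23.0%) and 22.1% of their partnered counterparts had a ZT22 peak within 1 kb, a difference of 0.895 points (-1.51 to 3.43). Within 5 kb a difference of 10.8 points (2.5 to 18.4) was seen there at scores of 3.0 or more, against 0.613 (-2.33 to 3.54) over all scores. Intervals treat peaks as independent, which neighbours are not, and cover counting error only.

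This crowding lay in the peaks beside shared sites. All 154 of those had another ZT10 peak within 1 kb, as they nearly must when the neighbouring ZT22 peak overlaps one. Beside single ZT22 peaks 23 of 96 (24.0%, 15.8 to 33.7) had one, and among the 418 peaks more than 1 kb from ZT22 peaks 47 did (11.2%, 8.38 to 14.7). If ZT22 peaks within 1000 bp are counted as partners, the difference turns to -11.7 points (-14.5 to -8.17). The 418 have no ZT22 peak within 1 kb by choice, which largely excludes close ZT10 neighbours shared with ZT22. The 11.2% and the -11.7 points are therefore partly built in as well and are no independent support. Of the 224 peaks with a close ZT10 neighbour, the nearest one was itself shared with ZT22 in 161 (71.9%, 65.5 to 77.7), another ZT10-only peak in 25 and a weak ZT10-only peak in 38. For partnered peaks with a close neighbour this neighbour was shared in 1149 of 1636 (70.2%, 68.0 to 72.4), and these intervals overlap. The nearest neighbour scored higher than the ZT10-only peak in 104 cases and lower in 111. That neighbour could have any score, whereas the rule held the ZT10-only peak to 2.0 or more. Part of the 111 is thus built in, as for the 38 weak neighbours, and these counts are a description only.

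**Figure D4:**
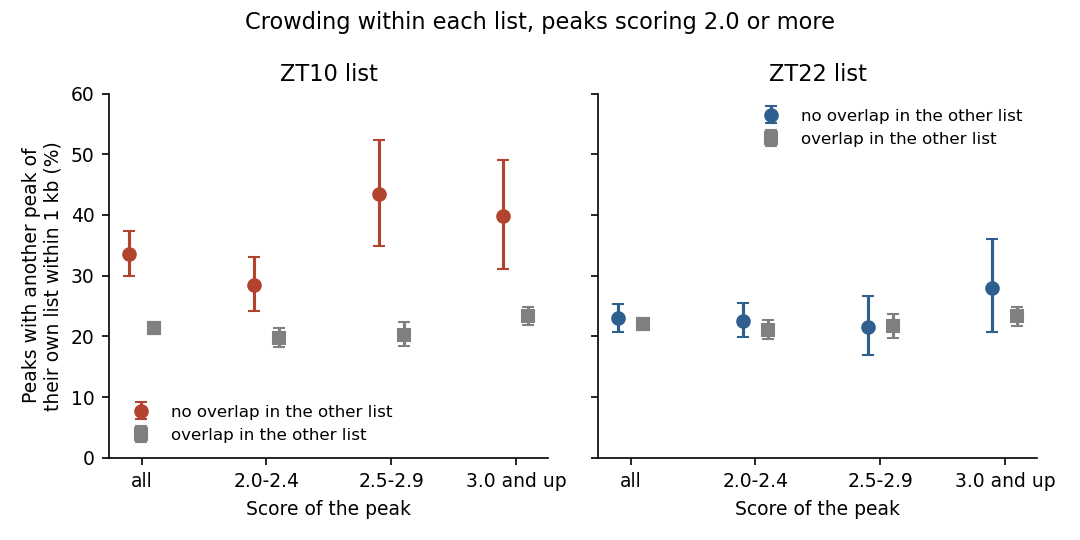
Share of peaks with another peak of their own list within 1 kb (vertical axis, %) by score (horizontal axis), for the ZT10 list on the left and the ZT22 list on the right, among peaks scoring 2.0 or more. Circles are peaks without overlap in the other list, squares those with overlap, and bars exact 95% intervals; over all scores circle and square stand at 33.5% and 21.4% in the ZT10 list and at 23.0% and 22.1% in the ZT22 list, where the bars of circles and squares overlap.

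On the scale of 10 kb the surroundings of ZT10-only peaks were occupied at both times. Peaks of both lists were present around 433 of the 668 (64.8%, 61.1 to 68.4), and neither list held another peak around 137 (20.5%, 17.5 to 23.8). Only 41 (6.14%, 4.44 to 8.23) had other ZT10 peaks but no ZT22 peak within 10 kb, and 57 (8.53%) had ZT22 peaks but no other ZT10 peak. For partnered peaks, leaving out the overlapping ZT22 peak, 5.88% (5.36 to 6.43) had ZT10 peaks alone, 58.1% (57.0 to 59.2) had both and 26.1% had neither. The intervals for neighbourhoods with ZT10 peaks alone overlap, whereas those for neighbourhoods with both do not. All 154 peaks beside shared sites had peaks of both lists within 1 kb, which the overlap rule nearly ensures. Part of the higher share with both, and of the higher means given next, is thus built in. These surroundings were not split by score. The mean number of other peaks within 10 kb was 1.42 of ZT10 and 1.56 of ZT22 around ZT10-only peaks, and 1.24 and 1.37 around partnered peaks.

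Most ZT10-only peaks had no other ZT10-only peak nearby. They were only 3.13% of all ZT10 peaks, and how often equally sparse peaks lie together was not tested. Of the 224 with another ZT10 peak within 1 kb, the nearest was itself ZT10-only in 25 (11.2%, 7.35 to 16). With a limit of 5 kb between starts, 608 of 668 (91.0%) had no other ZT10-only peak beside them. The other 60 formed 27 pairs and 2 groups of 3. No ZT22 peak was listed from the first to the last peak of 17 of these 29 groups. That count covers only the span of a group, and some of the 17 had a ZT22 peak just outside it. The chromosome 14 pair at 24041669 to 24042634 had one at a gap of 24 bp. For the chromosome 18 pair at 82813824 to 82818356 the gap was 34 bp. Both groups of 3 were on chromosome 8. Besides the one at 112879547 to 112880352 described above, the group at 47969353 to 47970585 held peaks at 47969353 to 47969552 (3.0), 47969912 to 47970111 (3.3) and 47970386 to 47970585 (2.6). Its nearest ZT22 peak, of score 2.9, was 7.10 kb from the last of these and overlapped a further ZT10 peak. The strongest pair was that on chromosome 12 around the ZT22 peak of score 11.8.

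The ZT10-only peaks were spread over all chromosomes, roughly as the clearer ZT10 peaks were. Chromosomes 11 and 2 held most, with 62 and 60, and chromosomes 14, 18 and 19 the fewest autosomal ones, with 20, 18 and 18. As a share of the ZT10 peaks with a score of 2.0 or more, they ranged over the 19 autosomes from 6.12% (3.67 to 9.50) on chromosome 19 to 10.8% (7.82 to 14.4) on chromosome 13. The interval of each of the 19 autosomes took in the overall 8.02%. Median scores differed little, from 2.2 to 2.4 by chromosome. On chromosome X 3 of 25 such peaks (12.0%, 2.55 to 31.2) were ZT10-only, too few to set apart, and the strongest of them, at 165341952 to 165342151, scored 2.3 with the nearest ZT22 peak 16.7 kb away. No ZT22 peak among the 20 on X with a score of 2.0 or more lacked a ZT10 partner, which allows a share of up to 15.0% when 3 counts are taken as the limit of a count of 0 (exact 95% interval 0 to 16.8).

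**Figure D5:**
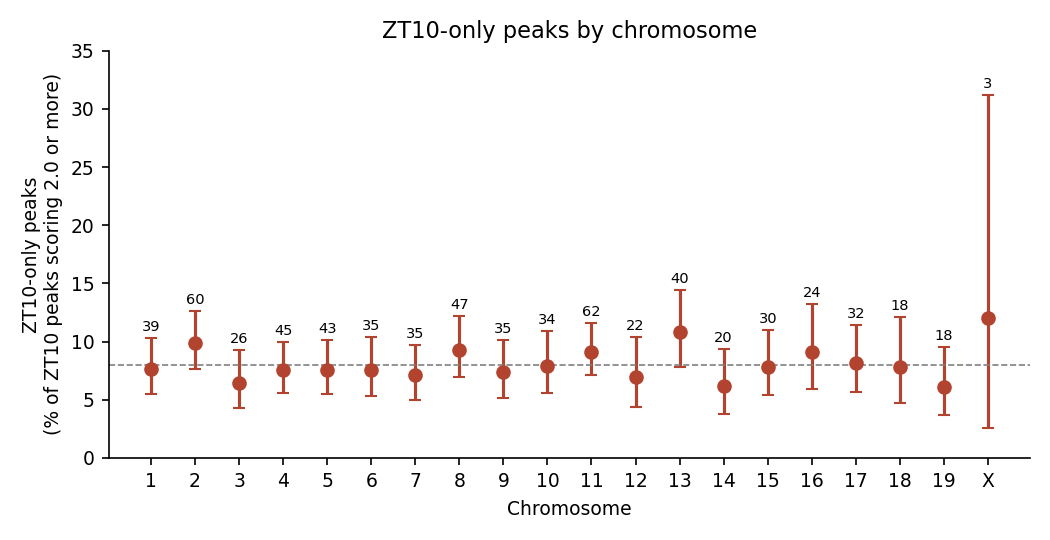
ZT10-only peaks on each chromosome as a share of the ZT10 peaks with a score of 2.0 or more there (vertical axis, %), with exact 95% intervals and the number of ZT10-only peaks above each bar. The dashed line is the overall 8.02%, which the interval of each autosome takes in; X, with 3 of 25 peaks, has the widest interval.

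At equal score limits the ZT10-only peaks and their ZT22 mirror group changed order. At 2.0 or more there were 668 of the former (8.02% of ZT10 peaks) and 1315 of the latter (15.8%, 15.1 to 16.6, of 8306 ZT22 peaks). The numbers were 254 and 440 at 2.5 or more, 123 and 143 at 3.0 or more and 58 and 66 at 3.5 or more. At 4.0 or more they were 36 of 1437 (2.51%, 1.76 to 3.45) and 20 of 1196 (1.67%, 1.02 to 2.57), with overlapping intervals. Whether a given score stands for the same enrichment in both libraries is unknown.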

How the data were processed

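Chromatin immunoprecipitation with an antibody to SMRT was sequenced from 2 pooled mouse liver libraries, 1 per time. Amplification took 15 PCR cycles and fragments near 250 bp were kept, per the labels' protocols. The submitters' processing notes name HOMER and build mm8. For the aligner, calling settings, input and depth, nothing is stated in the sources used here. The score of each 200 bp peak is the authors' deposited value, given to 1 decimal from 1.0 upward.

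Overlap meant at least 1 bp and was checked with bedtools 2.31.1 (668 peaks by both counts). Gaps run between nearest edges. Distance counts were tested on simulated lists. Shares carry exact Clopper-Pearson 95% intervals and differences Newcombe intervals (Python 3.11.15, SciPy 1.17.1, statsmodels 0.14.6). No p-values were computed, as neither time has a second library. The members and rules were chosen with earlier results of these data known. Peaks named by rule are those scoring 5 or more and the 3 fullest groups (ties by highest score). The rule also names the strongest on X and the strongest over 100 kb away. Outside this rule, the chromosome 14 and 18 pairs were given as examples of groups with a ZT22 peak just outside. Windows were chosen after their values were seen. Genes and sequences were not analysed here, since the available gene table uses another build (GRCm38). Alternatives changed the overlap definition, the score limit and the distances.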

Additional observations from a re-analysis of the deposited data

How the results depend on the processing

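Counting ZT22 peaks within 1000 bp as partners left 418 ZT10-only peaks (5.02% of the clearer ZT10 peaks), of which 11.2% had another ZT10 peak within 1 kb and 43.5% within 5 kb, where 59.0% had one with the 1 bp definition. The difference from partnered peaks then turned from 12.2 to -11.7 percentage points within 1 kb and from 9.45 to -7.11 within 5 kb. This definition moves all ZT10-only peaks with a ZT22 peak within 1 kb to the partnered group. These are the peaks beside shared sites and those beside single ZT22 peaks. Close ZT10 neighbours shared with ZT22 are thereby largely excluded, so the reversal is partly built in. Requiring 50% reciprocal overlap gave 912 ZT10-only peaks (11%), of which 54.2% had a ZT22 peak within 1 kb. The peaks added by this definition still overlap a ZT22 peak, though by less than 50%. The definition itself thus places them within 1 kb, and the higher share follows from it. A score limit of 1.5 gave 2178 peaks (16.1%) and 3522 in the ZT22 mirror group. There 31.4% had a ZT22 peak within 1 kb, 27.9% another ZT10 peak within 1 kb and 51.2% within 5 kb, 7.64 and 4.57 points above partnered peaks. A limit of 3.0 gave 123 (3.73%) and 143, with 41.5% near ZT22 and 39.8% near another ZT10 peak within 1 kb, 16.5 points above partnered peaks. None of the 123 was on X (0%, which allows up to 2.44% at 3 counts, exact 95% interval 0 to 2.95). With other distances, 73.4% had a ZT22 peak within 10 kb, and 33.5% and 71.0% another ZT10 peak within 1 and 10 kb. The alternatives for differences from partnered peaks, and for ZT10 neighbours within 1 kb, were chosen after seeing the data. No paired analysis was possible because neither time has more than 1 library, which also prevents leaving one out. Unknown read depth limits what absence from the ZT22 list shows, most of all near its lowest listed score of 1.0.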

Other observations

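The 668 ZT10-only peaks fell into 479 of the 1952 windows of 1 Mb that held any ZT10 peak. Of the 479 windows, 352 held 1 such peak, 80 held 2, 38 held 3 and 9 held 4 or more. The fullest were on chromosome 12 from 104000001 to 105000000, with 6 among 45 ZT10 and 43 ZT22 peaks, and on chromosome 15 from 76000001 to 77000000, with 6 among 47 and 45. Windows with 5 lay on chromosome 10 from 79000001 to 80000000 and on chromosome 17 from 45000001 to 46000000. In the order named, these 4 windows held 26, 19, 34 and 32 ZT10 peaks scoring 2.0 or more. Of all such peaks in the list 8.02% were ZT10-only, but these windows were picked for holding many. Those 4 windows also held 4, 6, 9 and 2 ZT22 peaks of the mirror group, in the order named. The median number of ZT10 peaks per window was 21 for ZT10-only peaks, 20 for partnered peaks and 17 for weak ZT10-only peaks.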
